A study of Mus musculus with 12 samples.

Results

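Transcripts of 9 genes for nuclear regulators of the spermatogonial stem cell were followed through the gonocyte stage of the mouse: Zbtb16, Id4, Pou3f1, Eomes, Pax7, Sall4, Sall1, Taf4b and Neurog3. Members were the rows of the deposited table whose Ensembl identifier maps to any of these symbols, and each had exactly 1 row among the 55487 genes of the table. All 9 passed the filter on low values, which kept genes reaching 10 normalized counts in 3 or more libraries and left 22384 genes to test. A normalized count is the number of reads assigned to a gene divided by a size factor of its library, as deposited. The members were not chosen by a threshold on these values.

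The study sequenced RNA from male germ cells of the testis at 4 stages, with 3 libraries each: the embryonic stages E13.5 and E16.5, birth (P0) and postnatal day 3 (P3). All cells came from Mvh-Venus mice, whose transgene carries a fluorescent reporter under the control of a germ cell gene (Mvh is another name of Ddx4), so the reporter marks germ cells as a whole and not stem cells. The labels conflict on genotype: titles and source names give WT for every library, whereas the genotype tag reads Morc1 (+/-) at E13.5 and P0 and Morc1 (-/-) at E16.5 and P3. Libraries were therefore grouped by stage alone, consecutive stages and P3 against E13.5 cross that tag, and stage and tag cannot be told apart in those comparisons. P0 against E13.5 and P3 against E16.5 stay within 1 tag. The labels do not say whether the libraries of a stage came from separate animals, litters or pools, so the p-values measure the spread between these libraries, which may be technical. Libraries are named by the numbers 1, 3 and 4 of the table's columns.

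Gonocytes stop dividing in the fetal testis and resume after birth, when some of them become spermatogonia. Spermatogonial stem cells renew themselves under GDNF, a growth factor from the surrounding somatic cells that acts through the receptor pair Gfra1 and Ret, and they also yield progenitors that later express Kit and differentiate. The factors described here act at different steps of that choice: some are linked to renewal, some mark small subsets of stem cells, and Neurog3 marks cells on the way to differentiation. Since the RNA came from bulk samples, fewer cells of a kind and less RNA per cell cannot be told apart in any of the values below.

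Between 40946616 and 51533747 reads were recovered per library. Size factors were similar at E13.5 (0.939 ± 0.0175, SD, n = 3), E16.5 (1.13 ± 0.117) and P3 (1.01 ± 0.0225) but 1.94 ± 0.118 at P0, so comparisons with P0 depend most on the scaling. Morc1, the gene named in the genotype tag, had 1621 to 1830 normalized counts at E13.5, 28328 to 32916 at E16.5, then 7280 to 7708 at P0 and 10584 to 11129 at P3, and was thus not lower in the stages tagged Morc1 (-/-). The summed level of 6 germ cell markers (Ddx4, Dazl, Mael, Tdrd1, Piwil2 and Rnf17) was 229679 to 244205 at E13.5, 210561 to 236114 at E16.5, then 152851 to 164777 at P0 and 246529 to 260067 at P3. Markers of other testis cells were present at lower sums. The 7 Sertoli markers summed to 895 to 1501, 1273 to 2506, 2841 to 5368 and 1168 to 1800 over the same stages, and the 5 Leydig markers to 571 to 723, 608 to 7681, 1078 to 6106 and 179 to 267. The 3 peritubular markers summed to at most 101.2, 1145, 2341 and 562, the 4 stromal markers to at most 95.0, 907, 1024 and 889, and the 5 blood and macrophage markers to at most 360, 1796, 1135 and 444. The 4 endothelial markers reached 5192 at E13.5, where Pecam1, a gene that fetal germ cells also express, made up most of the sum, and at most 849, 1157 and 741 later. Of 4 mast cell markers, all were at 0 in the E13.5 libraries, and they summed to 22.3 to 35.6 at E16.5, then 1178 to 2698 at P0 and 2.02 to 304 at P3. The part of such cells in the changes below was not tested. Where leaving out the 2 libraries highest in Leydig markers (E16.5 library 4 and P0 library 1) changed the call of a member, the value is given beside it.

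Leaving out Pax7, whose passing of the filter on low values bears on its test (below), the other 8 genes differed among the 4 stages by limma's F-test (Benjamini-Hochberg adjusted p between 1.31e-15 for Id4 and 3.97e-05 for Taf4b). This is close to the rule in these data, since 95.2% of all tested genes did. The members differed in shape. Zbtb16 and Pax7 were lowest at E13.5 and highest at P3. Id4, Pou3f1 and Eomes were lowest at E16.5 and highest at P3. Sall4, Sall1 and Neurog3 were highest at E13.5, with the lowest mean at P0 for Sall4 and at E16.5 for the other two. Taf4b was highest at E16.5 and varied least, by 1.46 times between its lowest and its highest stage mean, against 82.2 times for Pou3f1 and 81.2 times for Zbtb16.

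**Figure D1:**
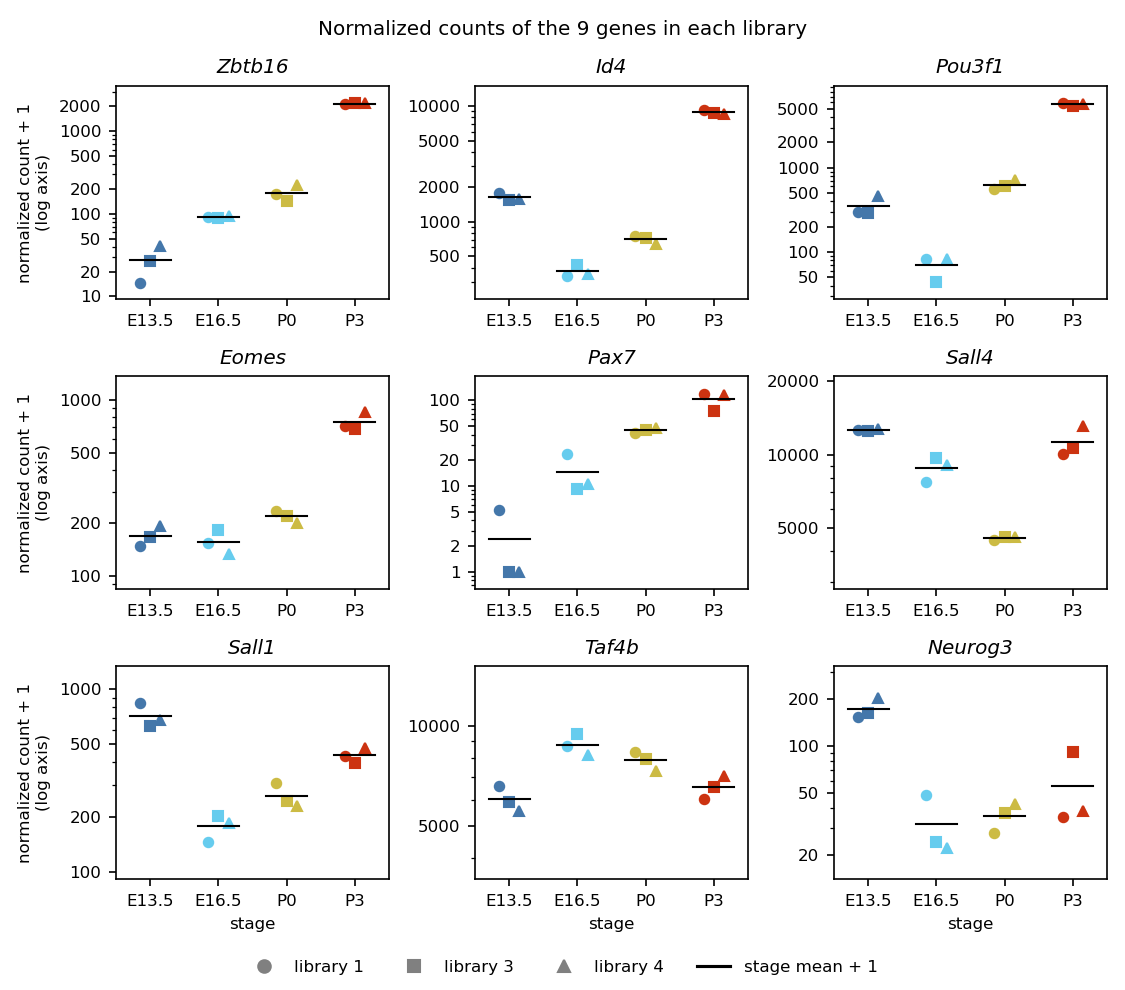
Normalized count plus 1 (log axis) of each of the 9 genes in each of the 12 libraries, by stage; symbols give the library number and black lines the stage mean plus 1. Zbtb16, Id4, Pou3f1, Eomes and Pax7 are highest in the 3 P3 libraries, Sall4, Sall1 and Neurog3 have their highest mean at E13.5, and Taf4b stays between 5534 and 9429.

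Zbtb16 encodes PLZF, a zinc finger repressor needed to keep the stem cell pool. The gene (ENSMUSG00000066687) lies on the minus strand of chromosome 9 at 48654297 to 48836222 of GRCm38. It had 13.7, 26.1 and 40.0 normalized counts in E13.5 libraries 1, 3 and 4, then 91.6, 89.3 and 93.4 at E16.5, then 172, 141 and 222 at P0, and 2113, 2202 and 2164 at P3. No 2 stages overlapped, and the level climbed at each step. The rise was 1.86 on the log2 scale at E16.5 (SE 0.274, limma adjusted p 9.19e-06), 0.93 at P0 (adjusted p 0.00761) and 3.62 at P3 (adjusted p 3.35e-09). The P3 mean, 2159.8 ± 44.3 (SD, n = 3), was 81.2 times the E13.5 mean and 12.1 times the P0 mean. Most of the gain therefore fell in the last interval: the P0 mean was 8.25% of the P3 mean. The relative spread between libraries was largest at E13.5, where the counts were low (coefficient of variation 49.3%, against 2.05% at P3).

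Id4 encodes a protein that binds E proteins, the common partners of helix-loop-helix factors, and keeps them from DNA; in the postnatal testis it marks stem cells. The gene (ENSMUSG00000021379) lies on the plus strand of chromosome 13 at 48261228 to 48266026. It had 1756, 1546 and 1567 normalized counts at E13.5, 339, 419 and 351 at E16.5, then 756, 719 and 645 at P0, and 9284, 8721 and 8578 at P3. Each stage was separate from every other. Id4 fell by 2.13 on the log2 scale at E16.5 (SE 0.0960, limma adjusted p 2.96e-12), so the E13.5 mean was 4.39 times that at E16.5. It rose by 0.94 at P0 (adjusted p 2.97e-07) and by 3.65 at P3 (adjusted p 2.74e-14). At P0 it was lower than at E13.5 by a log2 difference of -1.20 (limma adjusted p 3.77e-09), whereas with libraries scaled to equal totals this difference was -0.03 (adjusted p 0.754). At P3 it was 5.46 times the E13.5 mean. On the opposite strand, exons of A330033J07Rik and Gm49291 overlap those of Id4. Their overlaps added together come to 6.57% of its exon bases, with any base under both genes counted for each. A330033J07Rik ran the other way, with 9.17 ± 5.92 at E13.5, 463 ± 36.2 at E16.5, then 163 ± 22.1 at P0 and 23.1 ± 10.9 at P3. The strand setting of the counting is not given in the sources used here, so reads from that stretch cannot be told apart.

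Pou3f1 encodes OCT6, a POU domain factor whose transcript responds to GDNF in cultured stem cells. The gene (ENSMUSG00000090125) lies on the plus strand of chromosome 4 at 124656807 to 124660655, in a single exon. It had 299.8, 287 and 455 normalized counts at E13.5, 82.1, 42.8 and 82.3 at E16.5, then 553, 606 and 712 at P0, followed by 5842, 5407 and 5785 at P3. The stages did not overlap, and the gene went through a trough at E16.5. It fell by 2.34 on the log2 scale at E16.5 (SE 0.215, limma adjusted p 3.05e-08), then rose by 3.21 at P0 (adjusted p 1.54e-09) and by 3.19 at P3 (adjusted p 7.46e-10). Unlike Zbtb16 and Id4, for which the step to P0 was the smaller of the last 2 rises, Pou3f1 gained 9.04-fold and then 9.10-fold. This near equality depends on the scaling. Over the 4 other scalings its log2 rise ran from 3.18 to 3.87 at P0 and from 2.35 to 3.22 at P3. The P3 mean was 16.3 times the E13.5 mean. Gm2164 overlaps 8.57% of its exon bases on the opposite strand and was at no more than 0.690 on average in any stage.

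Eomes encodes a T-box factor found in a subset of Gfra1-positive spermatogonia. The gene (ENSMUSG00000032446) lies on the plus strand of chromosome 9 at 118478212 to 118486132. It had 147, 165 and 191 normalized counts at E13.5, 154, 182 and 134 at E16.5, then 234, 220.1 and 199 at P0, followed by 712, 683 and 856 at P3. The fetal stages overlapped, P0 lay just above them and P3 stood apart. At P3 it rose by 1.77 on the log2 scale (SE 0.159, limma adjusted p 2.82e-08), 3.44 times the P0 mean. The difference between E16.5 and E13.5 was -0.10 (adjusted p 0.558), and it was 0.40 (adjusted p 0.0269) with equal totals. The rise to P0 was 0.48 over E16.5 (adjusted p 0.0148) and 0.38 over E13.5 (adjusted p 0.0345), and it rested on few libraries. Against E16.5 it was 0.38 (adjusted p 0.0693) without E16.5 library 4, 0.43 (adjusted p 0.0571) without P0 library 1 and 0.32 (adjusted p 0.170) without both. Against E13.5 it was 0.29 (adjusted p 0.130) without E13.5 library 1, 0.37 (adjusted p 0.0667) without E13.5 library 3, 0.33 (adjusted p 0.107) without P0 library 1, 0.37 (adjusted p 0.0742) without P0 library 3 and 0.33 (adjusted p 0.0914) without the 2 libraries highest in Leydig markers.

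Pax7 encodes a paired box factor that marks a rare group of stem cells in the neonatal and adult testis. The gene (ENSMUSG00000028736) lies on the minus strand of chromosome 4 at 139737062 to 139833528. It was the scarcest member: 4, 0 and 0 reads at E13.5, 24, 9 and 12 at E16.5, then 78, 81 and 96 at P0, and 123, 75 and 114 at P3. As normalized counts these were 4.22, 0 and 0, then 22.9, 8.37 and 9.50, then 40.7, 44.0 and 46.3, and finally 119, 73.7 and 115. No 2 stages overlapped. Pax7 passed the filter through 7 libraries, none of them of E13.5, so a level above E13.5 in some later libraries was built into its selection. No test against E13.5 is therefore given for Pax7, and it is left out of the counts of members below where E13.5 is compared. With 4 reads in all at E13.5, its fold over that stage depends on the pseudocount and is not given either. It rose by 1.75 on the log2 scale at P0 against E16.5 (SE 0.567, limma adjusted p 0.0137), but this was 1.83 (adjusted p 0.196) with a pseudocount of 0.1, 1.49 (adjusted p 0.0602) without E16.5 library 3, 1.58 (adjusted p 0.0522) without E16.5 library 4 and 1.63 (adjusted p 0.0888) without the 2 libraries highest in Leydig markers. At P3 the mean was 2.35 times that at P0, with a limma adjusted p of 0.0676. The same difference had an adjusted p of 0.00432 in edgeR, 0.00152 in DESeq2, 0.000771 with a pseudocount of 10, 0.0137 without E13.5 library 1 and 0.04997 without E13.5 library 3.

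Sall4 and Sall1 encode related zinc finger factors; Sall4 is needed to maintain spermatogonia and was already abundant at E13.5. Sall4 (ENSMUSG00000027547) lies on the minus strand of chromosome 2 at 168748332 to 168767943. It had 12616, 12557 and 12742 normalized counts at E13.5, 7740, 9682 and 9082 at E16.5, then 4466, 4604 and 4590 at P0, followed by 10024, 10608 and 13151 at P3. The level stepped down at each interval up to birth and came back after it, with overlap only between E13.5 and P3. Sall4 fell by 0.52 on the log2 scale at E16.5 (SE 0.0943, limma adjusted p 8.14e-05) and by 0.95 at P0 (adjusted p 1.99e-07), then rose by 1.30 at P3 (adjusted p 1.99e-09). With equal totals the first of these was -0.02 (adjusted p 0.890), the next -0.29 (adjusted p 0.0225) and the last 0.46 (adjusted p 0.000862). P3 against E13.5 gave -0.18 (adjusted p 0.106), which became -0.29 (adjusted p 0.00591) without P3 library 4 and 0.15 (adjusted p 0.209) with equal totals. Gm14261 overlaps 9.50% of its exon bases on the opposite strand and averaged at most 16.7 normalized counts.

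Sall1 (ENSMUSG00000031665), on the minus strand of chromosome 8 at 89027235 to 89044162, had 838, 632 and 674 normalized counts at E13.5, 144, 201 and 185 at E16.5, then 304, 244 and 228 at P0, and 431, 396 and 479 at P3. Every E13.5 library was above, and every E16.5 library below, those of the other stages. It fell by 2.01 on the log2 scale at E16.5 (SE 0.160, limma adjusted p 4.92e-09), a deeper drop than the 0.52 of Sall4, and rose by 0.55 at P0 (adjusted p 0.00701), where Sall4 fell. The rise to P0 was 0.47 (adjusted p 0.0541) without the 2 libraries highest in Leydig markers. At P3 it rose by 0.75 over P0 (adjusted p 0.000440), but this was 0.31 (adjusted p 0.0721) with median-of-ratios factors and -0.08 (adjusted p 0.637) with equal totals. Per kilobase of exon, Sall4 exceeded Sall1 by 17.1 times at E13.5, 47.9 times at E16.5, then 17.0 times at P0 and 24.6 times at P3. This ratio within a library does not depend on the scaling. Its values ran from 45.8 to 51.1 at E16.5 and from 14.0 to 26.1 in the libraries of the other stages, so E16.5 stood apart.

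Taf4b encodes a gonad-enriched subunit of the general factor TFIID and is needed for long-term upkeep of the male germ line. The gene (ENSMUSG00000054321) lies on the plus strand of chromosome 18 at 14783245 to 14900359. It had 6592, 5923 and 5534 normalized counts at E13.5, 8697, 9429 and 8154 at E16.5, then 8339, 7954 and 7327 at P0, and 6008, 6555 and 7058 at P3. E16.5 and P0 overlapped, as did E13.5 and P3, and the former pair was higher. Taf4b rose by 0.54 on the log2 scale at E16.5 (SE 0.0846, limma adjusted p 1.74e-05) and fell by 0.27 at P3 against P0 (adjusted p 0.00869), which became -0.21 (adjusted p 0.0523) without P3 library 1 and -1.11 with equal totals. P0 against E16.5 was -0.15 (adjusted p 0.128) and changed sign with the scaling, to 0.06 with TMM factors, 0.10 with median-of-ratios factors and 0.51 (adjusted p 2.66e-05) with equal totals. Its broadly expressed relative Taf4, named here after its values were seen, stayed far lower. Per kilobase, Taf4b exceeded Taf4 by 15.9 ± 1.53 times at E13.5, 42.2 ± 11.4 times at E16.5, then 35.1 ± 2.25 times at P0 and 28.9 ± 3.56 times at P3 (SD, n = 3).

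Neurog3 encodes a helix-loop-helix factor of progenitors that are leaving the self-renewing pool, and its partners are the E proteins that Id4 sequesters. The gene (ENSMUSG00000044312) lies on the plus strand of chromosome 10 at 62133090 to 62134763, in a single exon. It had 153, 163 and 203 normalized counts at E13.5, 47.7, 23.2 and 21.4 at E16.5, then 26.6, 36.4 and 41.5 at P0, and 33.9, 91.3 and 37.5 at P3. E13.5 was above all later libraries, which overlapped among themselves. Neurog3 fell by 2.54 on the log2 scale at E16.5 (SE 0.383, limma adjusted p 1.23e-05), and the E13.5 mean was 5.62 times that at E16.5. P3 against P0 gave 0.50 (adjusted p 0.246), and 0.05 (adjusted p 0.899) without P3 library 3. That library also had a summed mast cell marker level of 304, against at most 3.88 in the other P3 libraries. At P0 that sum was 1178 to 2698, and Neurog3 had 26.6 to 41.5 normalized counts. Any part of mast cells in these values was not tested. P3 against E16.5 gave 0.74 (adjusted p 0.0945), with 1.10 (adjusted p 0.0232) without E16.5 library 1 and an adjusted p of 0.0450 without P3 library 1, and it passed in DESeq2 (adjusted p 0.0465). P0 against E16.5 gave 0.24 (adjusted p 0.600), and 0.89 (adjusted p 0.0482) with equal totals. Fam241b overlaps 16.3% of the exon bases of Neurog3 on the opposite strand. On either strand, 13.3% of the 50-base words of Neurog3 also occur in transcripts of Fam241b, and of no other gene. Fam241b had 657 ± 58.2, 635 ± 51.3, 674 ± 54.0 and 2827 ± 26.2 normalized counts over the 4 stages, so the small values of Neurog3 at P3 are uncertain.

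The sequence before the start of 3 members is shown because 2 of them, Id4 and Eomes, were highest at P3 and the other, Neurog3, was not. RefSeq windows were at hand for Id4, Eomes, Neurog3, Pax7 and Sall1 (build GRCm38.p6); the others are Zbtb16, Pou3f1, Sall4 and Taf4b. Each run below holds the 250 bases before the RefSeq start, 5′ to 3′ on the strand of the gene, with -1 as the last base. Id4 lies at chr13:48260866-48261115 (plus strand, within introns of A330033J07Rik and Gm49291), Eomes at chr9:118477939-118478188 (plus strand, in no annotated gene) and Neurog3 at chr10:62132840-62133089 (plus strand, within an intron of Fam241b). Capitals mark the CCAAT box, the GC box GGGCGG and the E-box CAGCTG, each on either strand.
Id4: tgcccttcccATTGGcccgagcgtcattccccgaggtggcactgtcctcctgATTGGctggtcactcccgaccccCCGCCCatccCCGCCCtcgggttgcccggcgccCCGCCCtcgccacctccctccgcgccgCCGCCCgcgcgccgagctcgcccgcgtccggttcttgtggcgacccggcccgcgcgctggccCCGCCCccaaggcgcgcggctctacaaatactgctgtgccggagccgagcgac
Eomes: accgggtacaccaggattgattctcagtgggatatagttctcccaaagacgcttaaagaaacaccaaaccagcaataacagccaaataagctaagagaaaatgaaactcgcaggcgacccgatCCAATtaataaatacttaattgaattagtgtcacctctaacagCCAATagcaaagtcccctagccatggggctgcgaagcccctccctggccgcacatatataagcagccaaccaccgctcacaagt
Neurog3: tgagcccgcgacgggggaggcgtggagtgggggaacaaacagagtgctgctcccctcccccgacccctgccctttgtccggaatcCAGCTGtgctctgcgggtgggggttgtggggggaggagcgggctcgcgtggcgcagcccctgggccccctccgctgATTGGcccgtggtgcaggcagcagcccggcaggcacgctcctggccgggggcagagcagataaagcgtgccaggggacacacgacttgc
Of 32851 windows of this length in the RefSeq table, 32.7% held a GC box and 33.8% a CCAAT box. The Id4 window held 5 GC boxes and 2 CCAAT boxes, with a GC content of 75.6%, higher than in 96.4% of windows. Eomes held 2 CCAAT boxes and no GC box, with a GC content of 46.4%. The E-box CANNTG, the site class of helix-loop-helix factors, occurred in 66.2% of all windows and, among these 3, only in Neurog3 at -165 to -160, where it reads CAGCTG (4271 of all windows, and a form of CANNTG). The E-box CACGTG (6.02%), the octamer ATGCAAAT bound by POU factors (526 windows), the T-box core GGTGTGA (3.33%) and the TATA box TATAAA (12.4%) were in none of the 3. These are matches of letters in this window only.

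Between E13.5 and E16.5 the members split. Zbtb16 and Taf4b rose, while Id4, Sall4, Sall1, Neurog3 and Pou3f1 fell, and Eomes did not pass the test (limma, Benjamini-Hochberg adjusted p under 0.05). That is 2 of 8 higher and 5 of 8 lower, where 45.5% and 34.6% of all tested genes were called higher and lower. The median log2 fold change of these 8 was -1.27, beside 0.31 for all genes. With equal totals Sall4 lost its call and Eomes gained one.

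From E16.5 to P0, 6 members rose (Zbtb16, Id4, Sall1, Pax7, Eomes and Pou3f1) and Sall4 fell, with Taf4b and Neurog3 not past the test. The backgrounds were 27.6% higher and 33.4% lower. Only Pou3f1 and Pax7 reached a log2 fold change of 1. The median of the members was 0.55, beside -0.01 for all genes. Without the 2 libraries highest in Leydig markers 4 members were called, and Sall1, Pax7 and Eomes were not among them. Calls over all genes fell as well. They numbered 4296 higher and 6767 lower of 21163 tested, where they had been 6173 and 7485 of 22384.

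Between P0 and P3, 6 members rose (Zbtb16, Id4, Sall4, Sall1, Eomes and Pou3f1) and Taf4b fell. The backgrounds there were 40.1% higher and 36.4% lower. Pax7 was higher in 3 of 3 P3 libraries without passing the test, and Neurog3 did not pass. The members' median was 1.30, beside 0.05 for all genes.

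**Figure D2:**
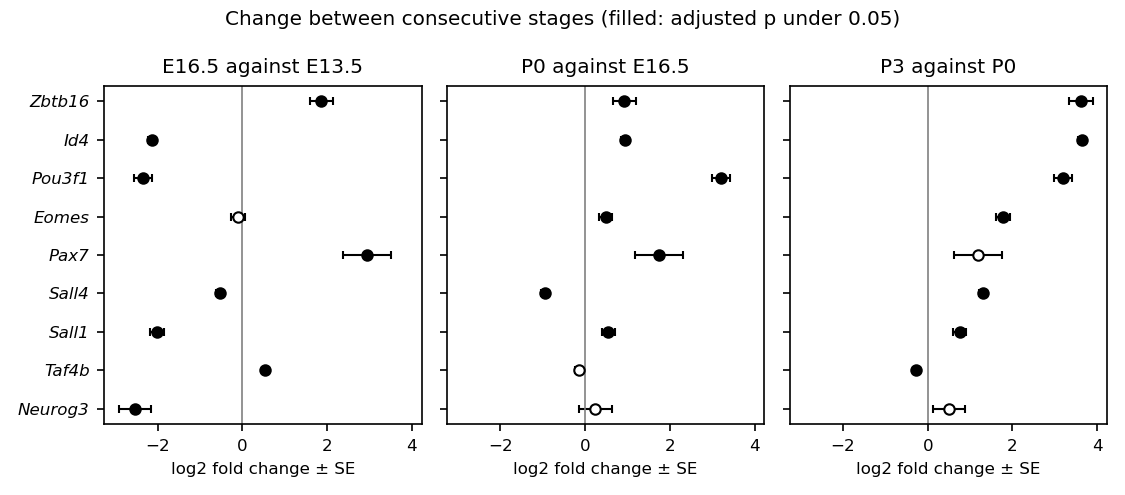
Log2 fold change with its standard error (limma) for the 9 genes at each consecutive comparison; filled points passed an adjusted p of 0.05. Zbtb16 lies to the right of 0 in all 3 panels, and Id4 and Pou3f1 lie to the left at E16.5 and to the right at P0 and P3. The Pax7 point at E16.5 rests on 4 reads at E13.5 and depends on the pseudocount, and Pax7 passed the filter through later libraries only.

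The 3 comparisons of stages that are not consecutive gave these counts. P0 against E13.5, both tagged Morc1 (+/-), had 4 of 8 members higher (Zbtb16, Taf4b, Eomes and Pou3f1) and 4 lower (Id4, Sall4, Sall1 and Neurog3), with backgrounds of 45.7% and 40.5% and medians of -0.41 for the members and 0.20 for all genes. Eomes was the member not called there without the 2 libraries highest in Leydig markers. P3 against E16.5, both tagged Morc1 (-/-), had 7 higher and Taf4b lower, with backgrounds of 34.2% and 35.2% and medians of 2.26 and -0.05. In it Pou3f1 rose by 6.40 on the log2 scale, Id4 by 4.58 and Zbtb16 by 4.55, and Neurog3 did not pass. Over the whole period, P3 against E13.5, which crosses the tag, 4 of 8 members were higher (Zbtb16, Id4, Eomes and Pou3f1) and Sall1 and Neurog3 were lower, with backgrounds of 39.2% and 31.2% and medians of 1.14 and 0.16. Sall4 and Taf4b did not pass there. With equal totals the fall of Sall1 at P0 against E13.5 was -0.30 (adjusted p 0.0940), and Taf4b at P3 against E13.5 was 0.45 (adjusted p 7.21e-05). Sall4 at P3 against E16.5 was 0.35 (limma adjusted p 0.00375), 0.16 (adjusted p 0.129) with median-of-ratios factors and 0.17 (adjusted p 0.160) with equal totals. These comparisons share libraries with those of consecutive stages.

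The scaling of libraries set the size of many of these changes. When libraries were scaled to equal totals, the median of all genes at E16.5 against E13.5 moved from 0.31 to 0.84. For P0 against E16.5 it moved from -0.01 to 0.68, and for P3 against P0 it turned from 0.05 to -0.86. Genes called higher and lower then numbered 12743 and 3443 for P0 against E16.5, where they had been 6173 and 7485. For P3 against P0 they numbered 4577 and 13565, where they had been 8966 and 8156. Over the 4 other scalings the rise at P3 against P0 ranged from 2.78 to 3.65 for Zbtb16, 2.81 to 3.68 for Id4, 2.35 to 3.22 for Pou3f1 and 0.94 to 1.80 for Eomes, so these 4 kept their direction. Sall1 (-0.08 to 0.78) and Neurog3 (-0.32 to 0.53) did not. At P0 against E16.5 the ranges were 0.90 to 1.59 for Zbtb16, 0.906 to 1.599 for Id4 and 3.18 to 3.87 for Pou3f1.

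**Figure D3:**
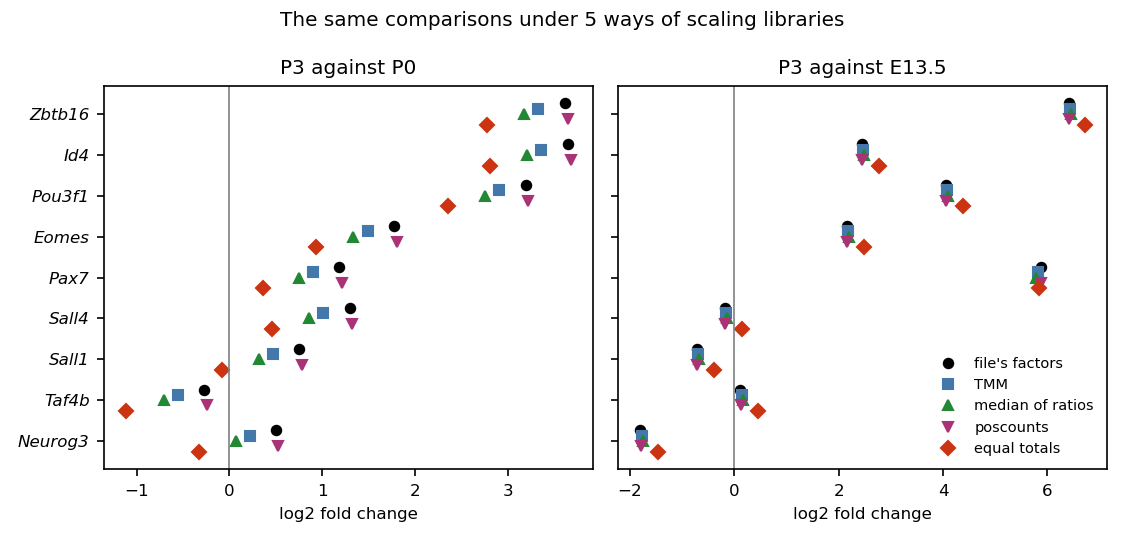
Log2 fold change of the 9 genes at P3 against P0 (left) and P3 against E13.5 (right) under the size factors of the file and 4 other scalings. At P3 against P0 equal totals move every point to the left and carry Sall1 to -0.08 and Neurog3 to -0.32, whereas at P3 against E13.5 the points of each gene lie closer together and only Sall4 changes sign (-0.18 with the factors of the file, 0.15 with equal totals). The Pax7 points at P3 against E13.5 depend on the pseudocount, so their closeness is not read as stability.

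Levels of different genes can be compared per kilobase of exon. At E13.5 the order was Sall4 (2283 ± 17.1 normalized counts per kb, SD, n = 3), Taf4b (1168 ± 104), Id4 (422 ± 30.1), Sall1 (136 ± 20.7), Neurog3 (103 ± 15.8), Pou3f1 (90.3 ± 24.3), Eomes (40.4 ± 5.40), Zbtb16 (5.03 ± 2.48) and Pax7 (0.240 ± 0.416). Neurog3 and Pou3f1 did not differ beyond their spread. At P3 the order had become Id4 (2302 ± 97.0), Sall4 (2034 ± 300.3), Pou3f1 (1475 ± 61.4), Taf4b (1270 ± 102), Zbtb16 (409 ± 8.39), Eomes (181 ± 22.4), Sall1 (82.7 ± 7.91), Neurog3 (32.4 ± 19.2) and Pax7 (17.5 ± 4.31). Id4 and Sall4 differed by less than the SD of Sall4, and Neurog3 and Pax7 by less than that of Neurog3. Zbtb16 moved from the 29.9th percentile of all tested genes at E13.5 to the 76.8th at P3, Id4 from the 75.9th to the 94.2nd and Pou3f1 from the 58.7th to the 90.9th. Pax7 was at the 35.3rd percentile at P3, where it was highest.

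Of 11 paralogs listed, 9 passed the filter (Neurog1 and Pou3f4 were too low). Pou3f2, Tbr1 and Neurog2 passed it only through their P0 libraries, so a higher level at P0 was built into their selection and they are left out of the counts. Of the other 6, none was higher and 4 fell at P3 against P0 (Sall2, Sall3, Pax3 and Tbx21; backgrounds 40.1% and 36.4%). At P0 against E16.5 Pou3f3 was left out as well, since no E16.5 library reached the filter, and 3 of 5 rose with none lower (Sall2, Sall3 and Pax3; backgrounds 27.6% and 33.4%). At E16.5 against E13.5 the E13.5 libraries of Tbx21 were also under the filter, and of 4 paralogs Sall3 and Pax3 rose and Taf4 fell (backgrounds 45.5% and 34.6%), though Taf4 lost its call with equal totals (-0.33, adjusted p 0.124). As levels only, Pou3f2 held 158 ± 9.98 normalized counts at P0 and 5.26 ± 7.42 at P3, and Tbr1, the relative of Eomes, 28.5 ± 3.003 and 3.01 ± 3.66. A fall from P0 was built into the selection of Pou3f2 and Tbr1, so it is not set against the members. Pax3, the relative of Pax7, fell from 220.1 ± 19.5 to 26.0 ± 7.43, and Sall2 from 277 ± 19.2 to 65.8 ± 12.3. In the same interval Sall4 rose, and Pax7 did not pass the test. The summed Sertoli, peritubular and mast cell markers were also highest at P0 (2841 to 5368, 2212 to 2341 and 1178 to 2698), and their part in the paralog values was not tested.

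The ID genes shared a fall at E16.5 and parted at P3. Id1, Id2 and Id3, of which Id1 and Id3 are named after their values were seen, fell by 2.03, fell by 3.56 and fell by 5.33 on the log2 scale at E16.5 (limma adjusted p up to 8.03e-08), and Id4 fell by 2.13. At P3 against P0 Id2 fell by 1.17 (adjusted p 4.00e-05), Id1 gave 0.11 (adjusted p 0.620) and Id3 0.28 (adjusted p 0.240), whereas Id4 rose by 3.65. Id1 and Id3 turned negative there with TMM and median-of-ratios factors and with equal totals (-0.72 and -0.56 with the last). Per kilobase, Id4 was 0.0980 ± 0.0116 times Id3 at E13.5, 0.939 ± 0.328 at E16.5, then 1.08 ± 0.183 at P0 and 11.1 ± 0.845 at P3. Against Id1 the ratio went from 0.727 ± 0.0423 to 12.7 ± 1.37, and against Id2 from 0.937 ± 0.0555 to 68.7 ± 9.51. These ratios within a library are free of scaling.

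**Figure D4:**
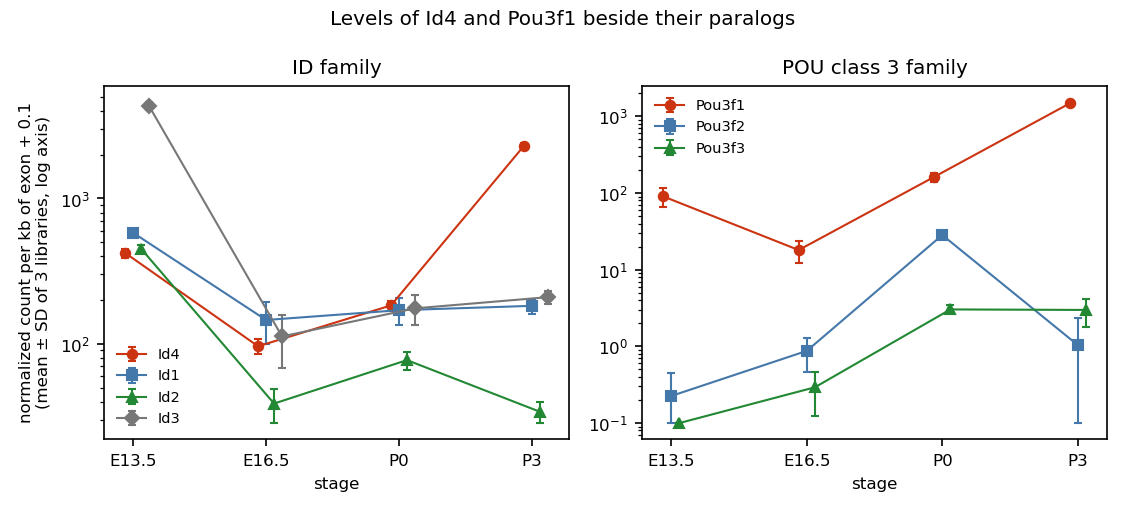
Normalized count per kilobase of exon plus 0.1 (log axis; mean ± SD of 3 libraries, lower bars stopped at 0.1) of Id4 with Id1, Id2 and Id3 (left) and of Pou3f1 with Pou3f2 and Pou3f3 (right). Id4 lies below Id3 at E13.5 (422 against 4321) and above all 3 others at P3, and Pou3f1 exceeds Pou3f2 and Pou3f3 at every stage.

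The E proteins that pair with ID proteins and with Neurog3 were expressed throughout. Tcf3 was the most abundant of the 3 per kilobase at every stage, at 4833 ± 164, 3234 ± 419, 723 ± 70.4 and 2772 ± 253 normalized counts per kb. It fell by 2.16 on the log2 scale at P0 (limma adjusted p 1.07e-11) and rose by 1.94 at P3 (adjusted p 1.24e-11). Tcf12 rose by 0.62 at P3, but this was 0.18 (adjusted p 0.0637) with median-of-ratios factors and -0.22 (adjusted p 0.0378) with equal totals, and Tcf4 fell by 0.46. Of the 6 ID and E protein genes, 0 were higher and 6 lower at E16.5 against E13.5, 2 higher and 1 lower at P0 against E16.5, and 2 higher and 2 lower at P3 against P0. The shares of all tested genes called higher and lower were 45.5% and 34.6%, 27.6% and 33.4%, and 40.1% and 36.4% in these comparisons, so the splits at P0 and P3 were near the background. The medians were -1.76, 0.18 and 0.19, beside 0.31, -0.01 and 0.05 for all genes. With equal totals the last 2 splits were 5 higher and 1 lower, and 1 higher and 5 lower, and those of all genes moved the same way, to 54.9% and 14.8%, and to 19.7% and 58.4%.

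Genes of the GDNF pathway moved beside the members. Of 7 listed (Gfra1, Ret, Etv5, Bcl6b, Lhx1, T and Nanos2), 3 rose and 3 fell at E16.5 against E13.5, 3 rose and 2 fell at P0 against E16.5, and 6 rose with none lower at P3 against P0, with medians of -0.27, 0.29 and 3.89, where all tested genes had 0.31, -0.01 and 0.05. The backgrounds were 45.5% higher and 34.6% lower, then 27.6% and 33.4%, then 40.1% and 36.4%. T was the exception at P3, and fell there with equal totals, TMM or median-of-ratios factors. Lhx1 was high at E13.5 and P3 and low between, with 3700.1 ± 151, 86.9 ± 33.5, 115 ± 16.6 and 3168 ± 80.3 normalized counts over the 4 stages. Its rise at P0 against E16.5 was 0.46 (limma adjusted p 0.0476), and the libraries of these stages overlapped. The listed genes called higher there numbered 2 with poscounts factors and 5 with equal totals, where 54.9% of all genes were called higher. Gfra1, the receptor subunit, rose at each step, as Zbtb16 did, from 23.2 ± 6.54 through 173 ± 15.9 and 575 ± 51.4 to 15269 ± 1436. Bcl6b rose to 981 ± 148 at E16.5, fell at P0 and reached 5614 ± 316 at P3. Etv5 rose by 3.89 at P3 (limma adjusted p 3.15e-13), and 24.5% of its 50-base words occur in other transcripts, so its level is less certain. For Nanos2 this share was 47.4%, and its P0 level was only 10.2 ± 3.36 normalized counts, so its calls are less certain too.

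The 12 other genes of undifferentiated spermatogonia were mixed, with 4 higher and 8 lower at E16.5 against E13.5, 3 higher and 6 lower at P0 against E16.5, and 7 higher and 3 lower at P3 against P0. The backgrounds of all genes were 45.5% and 34.6%, 27.6% and 33.4%, and 40.1% and 36.4%, so the share higher at P0 was near the background. The medians of the list were -0.71, -0.48 and 1.21, beside 0.31, -0.01 and 0.05. Nanos3, an RNA-binding repressor, had 2079 ± 75.9, 1368 ± 107, 34.0 ± 12.4 and 1045 ± 81.9 normalized counts over the 4 stages, a dip at P0 like that of Sall4 but deeper. Lin28a, which binds let-7 precursors, dipped as well, to 192 ± 29.5 at P0, and was at 1574 ± 130 at P3. Foxc2, a forkhead factor of quiescent stem cells, was at 7.07 ± 5.95 at E13.5 and 1524 ± 171 at P3. With equal totals the split at P3 was 6 higher and 5 lower, where 19.7% of all genes were called higher and 58.4% lower.

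Genes of differentiating spermatogonia were followed as well. Of 6 listed, 4 rose and 0 fell at P3 against P0, after 4 higher and 2 lower at each earlier step, with medians of 1.56, 1.58 and 1.74 over the 3 steps. All tested genes were called higher in 45.5%, 27.6% and 40.1% and lower in 34.6%, 33.4% and 36.4%, so the shares lower at the earlier steps were near the background. With equal totals the split at P3 was 4 higher and 2 lower, where 19.7% of all genes were called higher and 58.4% lower. Stra8, the retinoic acid target of differentiation and meiosis, rose from 290.4 ± 32.7 to 3937 ± 327 at P3 (log2 fold change 3.76, limma adjusted p 4.42e-13). Kit rose by 1.28 (adjusted p 3.05e-08) but was highest at E13.5, at 7276 ± 960. Sohlh2 rose by 2.19 and Ccnd2 by 2.57. Per kilobase, Kit was 204 ± 132 times Zbtb16 at E13.5, 18.2 ± 0.997 at E16.5, then 4.46 ± 1.35 at P0 and 0.861 ± 0.134 at P3. The ratio was thus lowest in the P3 libraries (0.726 to 0.995, against at least 3.24 in every earlier library). Which of these genes was higher at P3 depends on the exon lengths used. Without dividing by them, Kit had 2588 to 3632 normalized counts at P3 and Zbtb16 2113 to 2202.

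The genes most like each member in stage profile were found by the root mean square difference of log2(normalized count + 1), centred on each gene's mean, over the 12 libraries, among tested genes with a mean of at least 100 in their highest stage. The closest were Arih1 (0.0826) and Mindy3 (0.105) for Taf4b, Plekhm1 (0.0952) and Kat2a (0.0969) for Sall4, Xpo1 (0.136) and Rasa1 (0.145) for Sall1, and Lrp10 (0.162) and Ick (0.165) for Eomes. For Id4 they were Tspyl3 (0.349) and Syngr2 (0.365), for Neurog3 Pdss1 (0.427) and Odc1 (0.432), and for Zbtb16 Mapk11 (0.452) and Ccnd2 (0.533). Pax7 had Spi1 (0.520), a factor of blood lineages, and Ptprn (0.540), and Pou3f1 had Pcdh1 (0.648) and Egr3 (0.753), so Pou3f1 was matched least closely on this measure. The measure is not scaled to the size of a gene's changes, which among the members was smallest for Taf4b and largest for Pou3f1. Among the members themselves the nearest pair was Sall4 and Sall1, at 0.628, farther apart than each from its own neighbours. Zbtb16 and Id4 differed by 1.77 and Zbtb16 and Pax7 by 1.32.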

How the data were processed

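Per the labels' protocols, cDNA was made with a SMART-seq v4 kit for low input and libraries with a TruSeq mRNA kit. The submitters' processing notes name bcl2fastq 2.20, cutadapt 1.18, HISAT2 2.1.0, featureCounts 1.5.2 and DESeq2 1.26.0 and the builds mm10 and GRCm38, without order; strand setting, annotation release and the handling of reads that match several genes are not given in the sources used here. The deposited signal consists of featureCounts reads scaled by relative log expression, by the name the authors gave the file, that is with a single divisor for each library. Dividing by the smallest value of a library gave whole reads for 100% of values (tolerance 0.001).

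Symbols matched 55141 of 55487 identifiers (99.38%). Positions and exon lengths are from GENCODE M21 on GRCm38. The test was limma 3.58.1 (R 4.3.3; eBayes with a trend) on log2(normalized count + 1), with 12 libraries sharing the spread (8 residual degrees of freedom) and Benjamini-Hochberg adjustment over 22384 genes. The method was tested on simulated counts with 200 genes changed at P3 and the size factors known. This does not test the choice of scaling or data in which most genes change. Alternatives were other scalings (TMM, median of ratios, poscounts, equal totals), a pseudocount of 0.1 or 10, no filter or a mean of 100 or more, only the stages compared, a log2 fold change of 1 or more in either direction, edgeR 4.0.16 and DESeq2 1.42.0 on the recovered reads, each library left out and, added after seeing the data, a block on the column number and the 2 libraries highest in Leydig markers left out together. Intervals were not computed; the floor of 3 reads covers counting error only.

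Named genes are the 9 members, up to 4 genes of each list by the size of the change at P3 against P0 among those past the test, and the 2 nearest genes in profile, leaving out predicted-gene, Rik and clone names. Id1, Id3, Taf4, Pou3f3, Sall3, Tbx21 and Neurog2, and list members named for an exception, were chosen after their values were seen. The members and lists were chosen with earlier results of these data known.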

Additional observations from a re-analysis of the deposited data

How the results depend on the processing

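Columns numbered 1, 3 and 4 could not be matched to the replicate numbers 1, 2 and 3 in the titles, so a replicate block on the column number was fitted as an alternative chosen after seeing the data. It called 8, 7 and 8 members, Pax7 included, over the 3 consecutive comparisons in order of stage. The fit without it called 8, 7 and 7 (Pax7 at P3 against P0 gained its call with the block). At E16.5 against E13.5 the call of Pax7 is set aside, since it passed the filter through later libraries only. Of 22384 tested genes the block fit called 17911, 13529 and 17028, and the fit without it 17932, 13658 and 17122. The block moved no count of calls by over 1.5 times. Across genes, deviations of same-numbered libraries from their stage means correlated at -0.0356 to 0.0423 (18 pairs), and 2 of 12 libraries correlated best with their own number. Of 54 fold changes (9 members, 6 comparisons), 36 kept their direction and their side of the threshold in all alternatives run, up to 25 each. Pax7 and Neurog3 were not tested under a mean of at least 100. Of 1338 such alternative values 43 changed. Both counts take in the comparisons of Pax7 with E13.5, which never changed. Pax7 passed the filter through later libraries only, so these comparisons are not read as robustness. Directions changed with equal totals for Sall4 at P3 against E13.5 (0.15), Sall1 at P3 against P0 (-0.084), Taf4b at P0 against E16.5 (0.51, also 0.059 with TMM and 0.10 with median-of-ratios factors), Eomes at E16.5 against E13.5 (0.40, also 0.12 with median-of-ratios factors) and Neurog3 at P3 against P0 (-0.32). With each library left out in turn, Eomes at E16.5 against E13.5 ran from -0.22 to 0.0041, the latter without E16.5 library 4, alone or with P0 library 1. The members called, Pax7 included, at P0 against E16.5 fell from 7 to 2 when an absolute log2 fold change of 1 was required. They fell to 4 without the 2 libraries highest in Leydig markers, an alternative chosen after seeing the data. Without those libraries the calls over all genes numbered 11063 of 21163, where they had been 13658 of 22384. Of 390 counts over lists 8 moved by over 1.5 times. Requiring that fold left 3 GDNF genes at P0 against E16.5, 6 undifferentiated genes at E16.5 against E13.5 and 2 ID and E protein genes at P3 against P0, fewer by construction. ID and E protein genes at P0 against E16.5 numbered 5 with median-of-ratios factors and 6 with equal totals, in place of 3. A mean of at least 100 left 2 paralogs called at each consecutive comparison, of 7, 6 and 7 among all 9 that passed the filter, since fewer were tested. Depth limited Pax7 and Neurog3 most, with under 200 reads in every library.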
